A study of Homo sapiens with 2 samples.

Results

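Leucine tRNA genes were followed copy by copy in RNA recovered with hTrmt13 (TRMT13), a tRNA methyltransferase, from the human breast cancer cell line MDA-MB-231. The members were all features of class tRNA whose name starts with tRNA-Leu, which gave 38 genes among 596 tRNA features and 741078 features in all. The name of a gene gives its anticodon, then its isodecoder (a number for each distinct mature sequence with that anticodon), then its copy. The 38 genes fell into 5 anticodon families and 25 isodecoders, of which 5 had several gene copies. The families are called by their anticodon, as AAG genes or CAA genes. The data were CLIP-seq libraries, in which RNA crosslinked to a protein is isolated with an antibody and sequenced, with enzymes of the AlkB type used to remove RNA modifications. There was 1 group, hTrmt13 CLIP in MDA-MB-231 cells for which the labels give no genotype or treatment, with 2 replicates, and no input or antibody control was analysed here. Counts therefore describe what was recovered and not an enrichment, and no test between conditions was possible. Whether the replicates came from separate cultures is not stated in the labels, so every SD may hold technical spread only.

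Leucine tRNAs bring leucine to the ribosome and are charged by leucyl-tRNA synthetase. With serine and selenocysteine tRNAs they form the group of cytosolic tRNAs that carry a long variable arm, and they are longer than most tRNAs. Genes of the AAG family are read after the first anticodon base is deaminated to inosine, and most CAA genes carry an intron that is spliced out of the precursor. tRNA genes are transcribed by RNA polymerase III from promoter elements inside the gene, the A box and the B box. Trm13, the yeast counterpart of TRMT13, methylates a ribose in the acceptor stem of some tRNAs, and leucine tRNAs are not among its known yeast targets.

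RefSeq promoter windows (GRCh38.p14) that reach into a neighbouring tRNA-Leu gene show how the members are built. Of 35116 windows, 0 were named for a tRNA-Leu gene and 3 overlapped such a gene. The first pair below is shown for its internal promoter elements and anticodons. Capitals mark the A box (found with its general consensus), the anticodon and, in AAG-2-2, the core of the B box (searched as GGTTCGA). The whole gene is shown for AAG-2-2, from the minus strand of chr6:28943622-28943703, and the start of the gene for CAA-1-1, up to the window's edge, from the minus strand of chr6:28896280-28896328.
tRNA-Leu-AAG-2-2: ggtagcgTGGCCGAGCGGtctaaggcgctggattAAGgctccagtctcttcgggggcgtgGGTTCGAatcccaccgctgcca
tRNA-Leu-CAA-1-1: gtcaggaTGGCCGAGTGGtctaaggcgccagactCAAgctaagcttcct
Counted from the first base of the gene, the A box took bases 8 to 18 in both, a position set by the search. The anticodon took bases 35 to 37 in both, and the B box core of AAG-2-2 took bases 61 to 67. The genes matched at 26 of the 34 positions before the anticodon. Searched on both strands, the A box consensus matched in 21.7% of the 35116 windows and the B box core in 0.860%, and 41 windows held both on the same strand. The motifs do not overlap each other in these genes.

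The second pair shows why copies of an isodecoder are hard to separate. Here capitals mark the gene and lower case the bases around it, up to 20 on each side. AAG-2-2 is from the minus strand of chr6:28943602-28943723 and AAG-2-4 from the plus strand of chr16:22297159-22297241, where the window holds only the last 63 bases of the gene.
tRNA-Leu-AAG-2-2: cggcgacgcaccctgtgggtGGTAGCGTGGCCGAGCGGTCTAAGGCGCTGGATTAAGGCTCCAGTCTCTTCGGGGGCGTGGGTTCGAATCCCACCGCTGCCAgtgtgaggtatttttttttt
tRNA-Leu-AAG-2-4: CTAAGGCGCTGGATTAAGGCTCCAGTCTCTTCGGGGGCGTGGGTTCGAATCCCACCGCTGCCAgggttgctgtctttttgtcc
The part of AAG-2-4 was found as the longest match to the end of AAG-2-2, so identity at its 63 bases was set by the search. After the gene, 9 of 20 bases matched, and the longest run of T there was 10 bases in AAG-2-2 and 5 in AAG-2-4. A read that lies inside the mature tRNA therefore cannot be placed on either copy from these bases, whereas a read that runs past the gene's end can.

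The depth of the first-mate (R1) tables was 27907799 counts (replicate 1) and 20590398 counts (replicate 2), against 11246823 and 8793089 for the second mate (R2). A mean R1 count of 10 was reached by 13207 of 20285 nuclear protein-coding genes. Of the 8 markers chosen for MDA-MB-231 cells, 4 reached it, and VIM led with 382 and 722 counts. ANXA1 (0 and 3 counts), TGFBI (0 and 1), LGALS1 (5 and 9) and CD44 (12 and 7), which this line is known to express strongly, were near 0 in both replicates. The 8 markers summed to 16.2 and 39.6 CPM, counts scaled to a common library total, of which VIM alone gave 13.7 and 35.1. All 6 epithelial markers reached a mean R1 count of 10 and summed to 4.19 and 9.91 CPM. Of these, CDH1 had 40 and 51 counts, more than any MDA-MB-231 marker other than VIM. These counts were not divided by the length of the gene. Per kilobase of gene span, CDH1 (0.0199 CPM) stood below VIM (2.61), LGALS1 (0.0734), SPARC (0.0463) and CAV1 (0.0257). It stood above AXL, CD44, ANXA1 and TGFBI. PTPRC, ALB and TTR, markers of other cells, had 9 and 7, 0 and 0, and 0 and 0 counts. These are RNA fragments recovered with the protein and not expression levels.

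tRNA-Leu genes took 524024 R1 counts in replicate 1 and 405772 in replicate 2. Their share of all tRNA counts was 3.13% (3.12 to 3.14%) in the first and 3.50% (3.49 to 3.51%) in the second, with exact 95% Clopper-Pearson intervals, or 3.31% ± 0.260 (SD, n = 2). Intervals cover counting error only, since PCR reads without molecular identifiers are not independent molecules. In R2 the share was 6.96% and 7.72%, or 7.34% ± 0.537 (SD, n = 2), so the gap between mates was larger than the spread between replicates. Counting the 3 lookalikes of leucine tRNA in, the leucine isotype ranked 6 of 22 in R1 and 4 in R2.

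The counts were spread over more leucine genes than was the case for tRNA-Arg, the isotype with the most counts, or tRNA-Ser. The highest leucine gene held 18.1% of tRNA-Leu counts in replicate 1 and 20.4% in replicate 2, whereas the highest feature of tRNA-Arg held 48.6% and 50.9% of its isotype. For tRNA-Ser, which shares the long variable arm, it was 43.4% and 47.5%. In both replicates, 14 of 38 genes were needed to reach 90% of tRNA-Leu counts. This compares with 7 of 33 features for tRNA-Arg and 12 and 11 of 28 genes for tRNA-Ser, so the number of genes differed too. Other isotypes needed about as many, with 15 and 14 of 39 features for tRNA-Gly and 14 of 27 in both replicates for tRNA-Pro. By the share of the highest feature, leucine ranked 18 of 22 isotypes, lookalikes included. The 5 highest leucine genes together held 55.9% ± 0.307 (SD, n = 2).

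The members differed widely in level. A count of at least 1000 in both replicates was reached by 28 genes, and a mean R1 count of at least 10 by 33. The other 5 members, tRNA-Leu-CAA-5-1, TAG-4-1, AAG-6-1, TAA-5-1 and AAG-5-1, had between 0 and 10 counts in either replicate. AAG-5-1 had 0 counts in all 4 tables, which allows up to 0.107 CPM in replicate 1 and 0.146 CPM in replicate 2 of R1. The shortest members, AAG-5-1 with 73 bases and CAA-5-1 with 74, were both in this group.

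**Figure D1:**
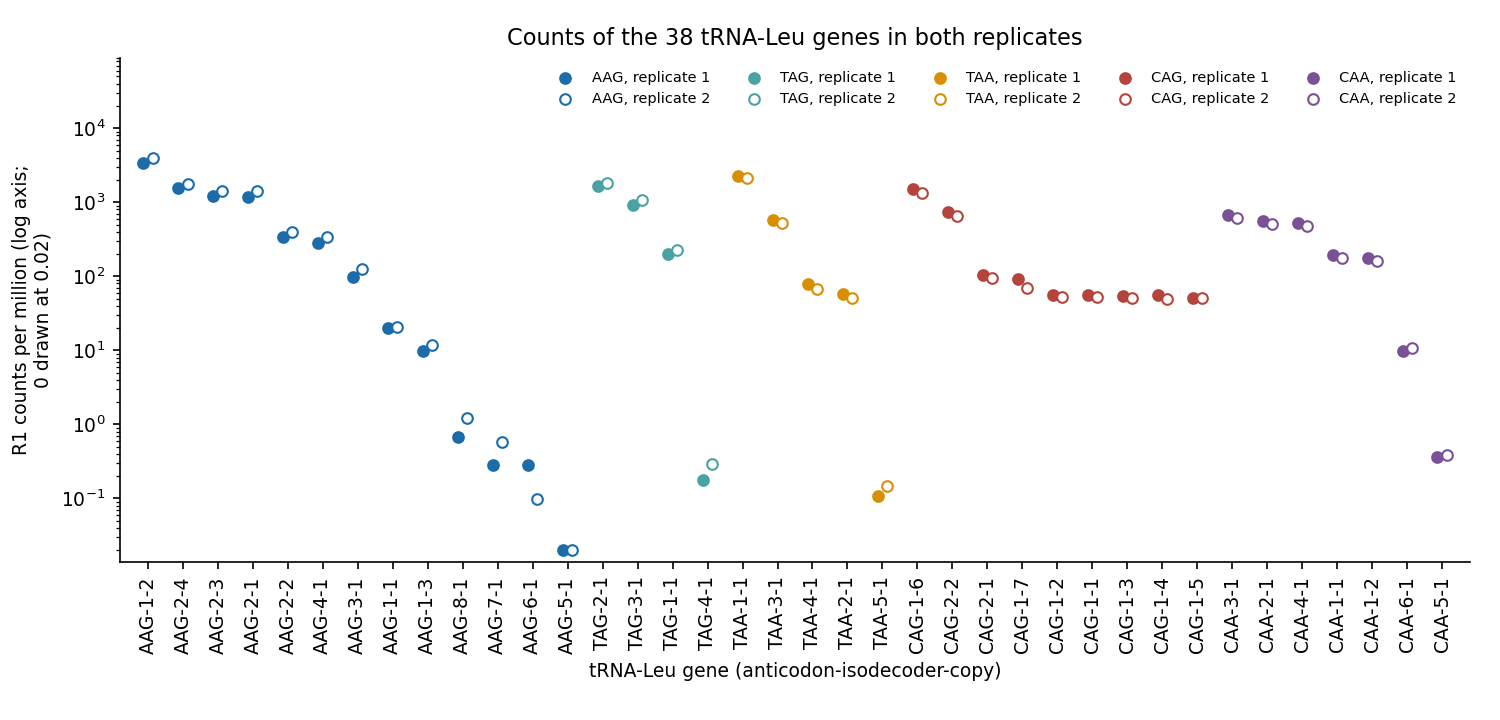
R1 CPM (log axis) of each tRNA-Leu gene, grouped by anticodon and ordered by level, with filled points for replicate 1 and open points for replicate 2. The 28 genes with at least 1000 counts lie above the sparse copies at the right of the AAG, TAG, TAA and CAA families, and the replicates of each of them lie close together.

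By anticodon, the AAG family led and the CAA family was lowest. The AAG genes held 226362 counts in replicate 1 and 195837 in replicate 2, or 45.7% ± 3.58 (SD, n = 2) of tRNA-Leu counts from 13 genes. The TAG family took 15.3% ± 0.549, the TAA family 14.9% ± 1.40, the CAG family 13.4% ± 1.63 and the CAA family 10.6% ± 1.10 (SD, n = 2 each). AAG stood above each of the other families in both replicates by far more than the spread. The ranges of mean ± SD of TAG, TAA and CAG overlapped. Within each library both TAG and TAA stood above CAG (14.6% in replicate 1 and 12.3% in replicate 2), while TAA stood above TAG in replicate 1 (15.9% against 14.9%) and below it in replicate 2 (13.96% against 15.7%). Per gene copy the order changed, with TAG at 17734 ± 2562 counts, AAG at 16238 ± 1660, TAA at 14016 ± 3802, CAA at 7092 ± 1997 and CAG at 7016 ± 2089 (SD, n = 2 each). These are unscaled counts, so their SD also holds the difference in depth between the libraries. As shares of the summed means per gene, TAG took 28.7% ± 1.47 and AAG 26.4% ± 2.47 (SD, n = 2 each). On either measure, TAG and AAG did not differ beyond their spread, while TAG with 4 genes was the higher in both replicates.

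**Figure D2:**
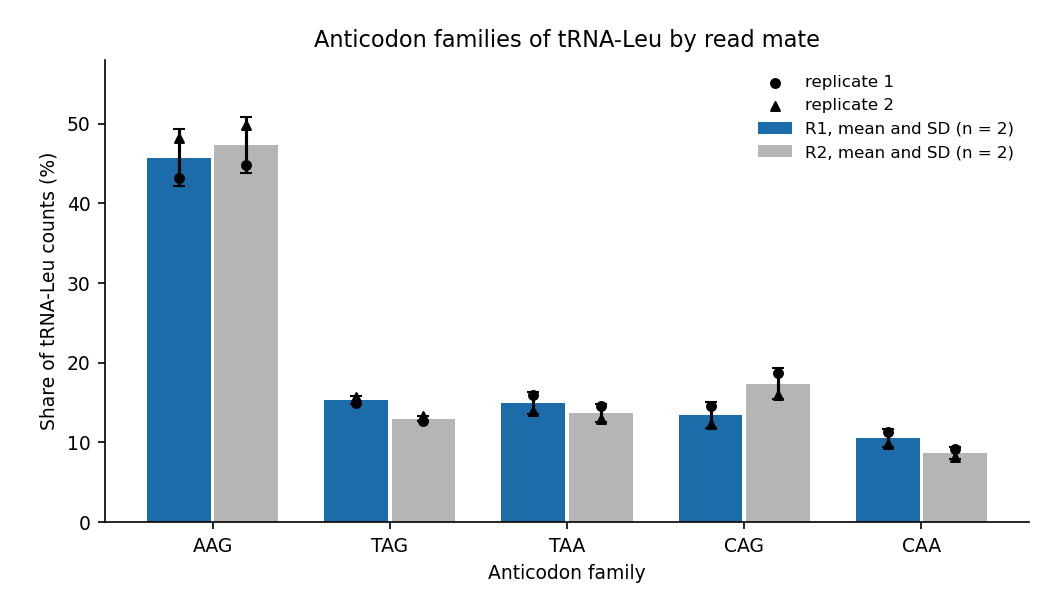
Share of tRNA-Leu counts (%) in each anticodon family for R1 (blue) and R2 (grey), as the mean with SD of 2 replicates and a point for each replicate. AAG holds 45.7% in R1 and 47.3% in R2, and CAG is higher in R2, at 17.3% against 13.4%.

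Within the AAG family the highest copy held 42.0% ± 0.332 (SD, n = 2) of R1 counts, a smaller share than in TAG, TAA or CAG. tRNA-Leu-AAG-1-2 (hg19, chromosome 5, 180528840 to 180528921, plus strand) had 94625 and 82784 R1 counts, or 3706 ± 445 CPM, and was the highest of all members. It overlaps no other listed feature. The next AAG genes were the copies of isodecoder 2. AAG-2-4 (chromosome 16, 22308461 to 22308542, plus strand) had 43690 and 36465 counts. AAG-2-3 (chromosome 14, 21078291 to 21078372, plus strand) had 33769 and 29198, and AAG-2-1 (chromosome 5, 180614701 to 180614782, plus strand) had 33368 and 28808. AAG-2-3 and AAG-2-1 were nearly equal, with AAG-2-3 slightly higher in each replicate, and AAG-2-4 was above both in each replicate. AAG-4-1 with 7902 and 7005 counts and AAG-3-1 with 2690 and 2602 were the only genes of their isodecoders.

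The TAG and TAA families each rested on few genes. tRNA-Leu-TAG-2-1 (chromosome 14, 21093529 to 21093610, plus strand) had 47005 and 37187 counts and held 59.3% ± 1.23 (SD, n = 2) of TAG counts. TAG-3-1 (chromosome 16, 22207032 to 22207113, minus strand) followed with 25672 and 21880, and TAG-1-1 on chromosome 17 with 5499 and 4615. tRNA-Leu-TAA-1-1 (chromosome 6, 144537684 to 144537766, plus strand) had 63796 and 43345 counts, the second highest of the members, and held 76.5% ± 0.102 of TAA counts (SD, n = 2). TAA-3-1 on chromosome 11 had 15916 and 10847, TAA-4-1 had 2216 and 1394, and TAA-2-1 had 1589 and 1050. Each TAG and TAA gene is an isodecoder of its own, with a distinct mature sequence.

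The CAG family had 9 genes in only 2 isodecoders. tRNA-Leu-CAG-1-6 (chromosome 1, 161500132 to 161500214, minus strand) led with 42471 and 27770 counts, 55.6% ± 0.101 (SD, n = 2) of CAG counts. It was followed by CAG-2-2 on chromosome 16 with 20921 and 13464.

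In R1, the highest copy held a smaller share of its family in CAA than in any other family, at 31.3% ± 0.00835 (SD, n = 2). Its 5 genes of 105 to 108 bases were the only members over 100 bases, and they held 10.5% ± 1.11 (SD, n = 2) of tRNA-Leu counts. Genes of this family are known to carry an intron, and the tables do not show whether reads crossed one. tRNA-Leu-CAA-3-1 (chromosome 6, 27570348 to 27570454, minus strand) had 18626 and 12436 counts. CAA-2-1 had 15476 and 10376, CAA-4-1 14717 and 9738, CAA-1-1 5430 and 3689, and CAA-1-2 4998 and 3293. CAA-6-1, with 84 bases, stood far below these at 271 and 220.

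Copies of an isodecoder share their mature sequence, yet their counts differed widely. In AAG-1 the highest copy stood above the lowest by 343-fold in replicate 1 and 338-fold in replicate 2. AAG-1-2 had 94625 and 82784 R1 counts, while AAG-1-1 had 554 and 425 and AAG-1-3 had 276 and 245. All 3 lie on chromosome 5. In CAG-1 the ratio was 29.7 and 27.7, in CAG-2 it was 7.30 and 6.99, and in AAG-2 it was 4.62 and 4.41. The copies of CAA-1 were nearly equal, at 1.09 and 1.12. Summed over its copies, AAG-2 held 24.1% ± 1.67 of tRNA-Leu counts and AAG-1 held 19.4% ± 1.66 (SD, n = 2 each), so AAG-2 led as an isodecoder although its highest copy stood below AAG-1-2. The highest copy of each of these 5 isodecoders was the same in both replicates, and so was the lowest, except in CAG-1, where CAG-1-5 was lowest in replicate 1 and CAG-1-4 in replicate 2.

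AAG-2-2 and AAG-2-4, whose shared bases are printed above, differed too. AAG-2-2 (hg19, chromosome 6, 28911399 to 28911480, minus strand) had 9453 and 8266 counts against 43690 and 36465 for AAG-2-4. Both mates gave this order, with 8661 and 8467 R2 counts for AAG-2-2 and 37782 and 29899 for AAG-2-4. In R2, AAG-2-1, AAG-2-3 and AAG-2-4 were nearly equal, at 37988, 37917 and 37782 counts in replicate 1.

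CAG-1 was the isodecoder with the most copies. CAG-1-1 to CAG-1-5 lie in a row on the plus strand of chromosome 1, with starts 7381 to 7418 bases apart, each next to a tRNA-Asp-GTC gene 636 bases away. Their R1 counts ran from 1430 to 1576 in replicate 1 and from 1003 to 1071 in replicate 2. CAG-1-6, in the same region but on the minus strand, had 42471 and 27770, more than the 5 copies of the row together (7631 and 5245). CAG-1-7 on chromosome 6 had 2543 and 1444. In R2 the copies of the row had 4561 to 4667 and 3017 to 3216 counts, about as many as CAG-1-7 with 4727 and 3189, and CAG-1-6 had 31226 and 19353. The ratio of highest to lowest copy in CAG-1 fell to 6.85 and 6.41 in R2. How reads that match several copies were placed is not given in the sources used here, so the count of a single copy is uncertain, and a sum over an isodecoder avoids only the split between its copies.

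**Figure D3:**
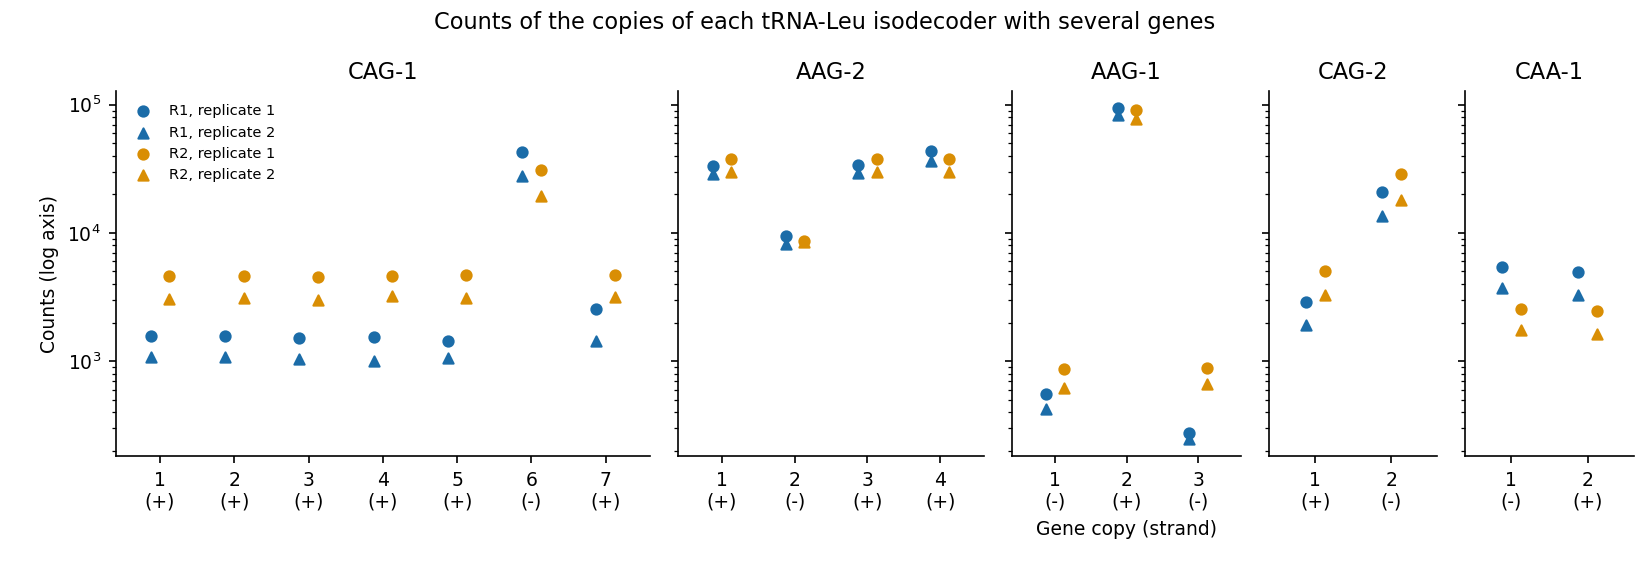
Counts (log axis) of each copy of the 5 isodecoders with several genes, with blue for R1, orange for R2, circles for replicate 1 and triangles for replicate 2, and the strand under each copy number. CAG-1-6 and AAG-1-2 stand far above their sister copies in R1 and R2, whereas the 5 copies CAG-1-1 to CAG-1-5 lie level with each other and are higher in R2 than in R1.

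The mates gave unequal pictures of the family. Over all tRNA-Leu genes, R2 counts were 94.9% of R1 counts in replicate 1 and 91.6% in replicate 2. With the lookalikes counted in, leucine ranked 2 of 22 isotypes by this measure, next to selenocysteine tRNA, which had 93.3% and 94.3%. tRNA-Ser stood at 64.1% and 63.7% and tRNA-Arg at 18.9% and 18.7%. Among the members with a mean R1 count of at least 10, the median was 91.6% and 94.0%, against 40.2% and 38.4% over all tRNA features past that minimum and 87.3% and 84.1% over all features. No test was made of these differences. The isotype totals of tRNA-Leu and tRNA-Ser did not overlap between the replicates, but their single genes did: members ran from 0 to 326% and tRNA-Ser genes from 10.5 to 85.9% in replicate 1.

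**Figure D4:**
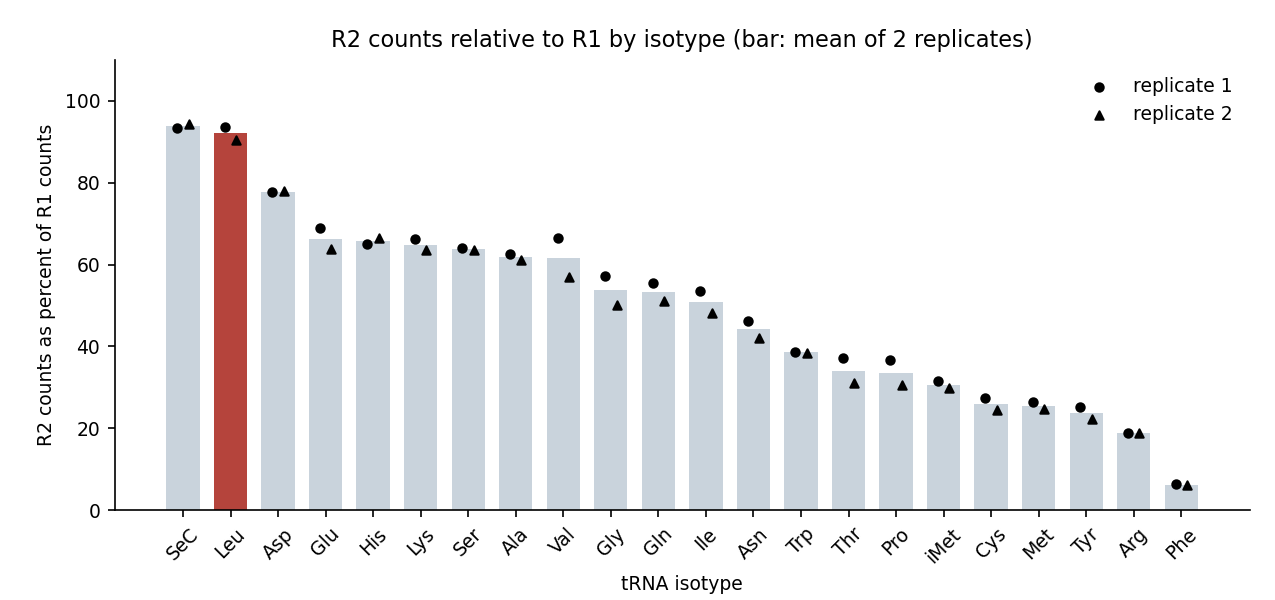
R2 counts as a percent of R1 counts for the 22 tRNA isotypes with at least 1000 R1 counts in replicate 1, lookalikes included, as the mean of 2 replicates (bars) with a circle and a triangle for the replicates. Leucine (red) and selenocysteine tRNAs stand highest, each above 90% in both replicates.

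By family the R2 percentage ran from 76.2% ± 0.467 for CAA to 120.4% ± 2.04 for CAG (SD, n = 2 each), with AAG at 96.5% ± 2.86, TAA at 85.5% ± 1.39 and TAG at 79.1% ± 2.64. Of the 33 members past the minimum, 13 had more R2 than R1 counts in both replicates. The same held for 6.55% of tRNA features and 3.98% of all features past the minimum. These 13 were 8 of the 9 CAG genes, all but CAG-1-6, with AAG-1-1, AAG-1-3, AAG-2-1, AAG-2-3 and TAA-2-1. Several are copies of an isodecoder and share their mature sequence, so they are not independent cases. The highest values were those of CAG-1-1 to CAG-1-5, at 295 to 326% in replicate 1 and 285 to 321% in replicate 2, and of AAG-1-3, at 322% and 273%. The lowest among genes with at least 1000 counts were the 2 copies of CAA-1, at 47.3% and 49.2% in replicate 1 and 47.0% and 49.5% in replicate 2. When the highest copy of each family was left out, CAG moved to 181.6% ± 0.945 (SD, n = 2). CAA-6-1 was the member least alike between replicates, with 98 R2 counts (36.2% of R1) in replicate 1 and 299 (135.9%) in replicate 2.

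The replicates differed by anticodon. In CPM, all 11 AAG and all 3 TAG genes past the minimum were higher in replicate 2, with a median of 1.18-fold. All 4 TAA genes, 8 of 9 CAG genes and 5 of 6 CAA genes were lower, with a median over the 3 families of 0.909-fold. The exceptions were CAG-1-5 at 1.01-fold and CAA-6-1 at 1.10-fold. Of the genes that averaged 1000 counts or more, the folds ran from 1.07 to 1.31 in the 10 AAG and TAG genes and from 0.770 to 1.01 in the 18 others. Over all members past the minimum, the ranges overlapped, at 1.04 to 2.03 and 0.770 to 1.10. The AAG and TAG families together took 58.1% of tRNA-Leu counts in replicate 1 and 64.0% in replicate 2, and in R2 57.6% and 63.0%. Gene by gene the split was less complete in R2, where 9 of 13 AAG and TAG genes and 1 of 19 others were higher in replicate 2. The R2 folds overlapped, at 0.895 to 1.31 and 0.792 to 3.90. This grouping of families was chosen after the values were seen and compares 1 library with 1 other. Copies of an isodecoder share their mature sequence, so the genes are not separate cases. Of nuclear protein-coding genes past the minimum, 13054 of 13207 were higher in replicate 2. Over all tRNA features past it, the median log2 ratio of replicate 2 over replicate 1 was -0.01. The direction of each family depends on the scaling, since under edgeR's TMM factors 31 of 33 members were over 1.5-fold lower in replicate 2. Each scaling divides all counts of a library by 1 number, so the ratio between families stays the same by arithmetic. That is no sign of stability.

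**Figure D5:**
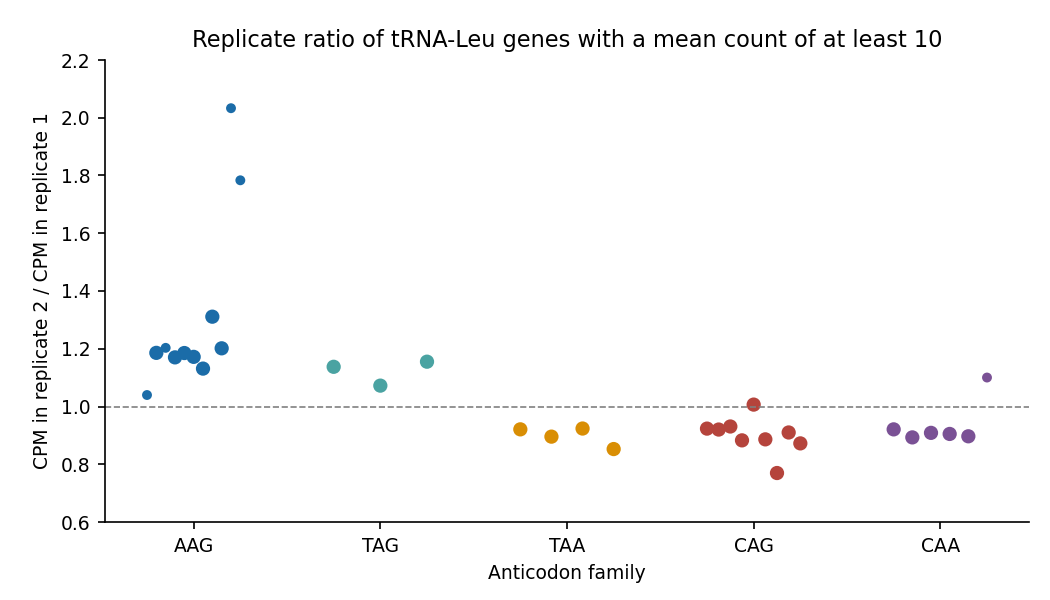
CPM in replicate 2 divided by CPM in replicate 1 for each tRNA-Leu gene with a mean R1 count of at least 10, by anticodon family, with large points for a mean of at least 1000 counts and small points below it. All AAG and TAG genes lie above 1 (dashed line), and 17 of 19 genes of the other families lie below it.

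With counts scaled to library totals, few members and few tRNA features were over 1.5-fold apart between the replicates. Higher by over 1.5-fold in replicate 2 were 2 of 33 members (6.06%), near the 6.98% of tRNA features past the minimum and against 87% of all features. These were AAG-8-1, with 19 and 25 counts, and AAG-7-1, with 8 and 12, both sparse. Lower by over 1.5-fold were 0 of 33, against 0.641% of all features and 5.29% of tRNA features. Under edgeR's TMM factors or DESeq2's size factors, 31 of 33 members were lower by over 1.5-fold. The median log2 ratio of replicate 2 over replicate 1, taken on CPM + 0.5, was -0.10 for the members, -0.01 for all tRNA features and 0.89 for all features. The next largest rise was that of AAG-3-1 (1.31-fold). The largest falls were those of CAG-1-7 (0.770-fold), TAA-4-1 (0.853-fold) and CAG-2-2 (0.872-fold).

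The members lay on 10 chromosomes. The 5 genes on chromosome 5 took 26.1% ± 2.18 of tRNA-Leu counts and the 12 on chromosome 6 took 24.6% ± 1.64 (SD, n = 2 each). Chromosome 16 held 17.97% ± 0.280 with 4 genes, chromosome 14 held 15.9% ± 0.669 with 3 and chromosome 1 held 11.5% ± 1.30 with 8 (SD, n = 2 each). Chromosome 6 stood above chromosome 5 in replicate 1 (25.7% against 24.6%) and below it in replicate 2 (23.4% against 27.7%). Most of the sum on chromosome 5 came from AAG-1-2 and AAG-2-1, whereas the highest copy on chromosome 6 held 46.5% ± 1.19 of its sum (SD, n = 2).

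Of the 38 members, 31 overlap no other listed feature and 7 do. RP11-122G18.10 (ENSG00000283360.1_4, a long non-coding RNA gene on the minus strand of chromosome 1, 161373199 to 161440313) spans CAG-1-1 to CAG-1-4 and had 64385 and 56391 counts. The 25 tRNA features inside it summed to 64299 and 56263, nearly the same. RP11-25K21.6 (ENSG00000273112.1_5, plus strand, 161482966 to 161574889) spans CAG-1-6 and had 197568 and 131814 counts, against 197513 and 131776 for its 6 tRNA features. Both genes lie on the strand opposite to the members they span, yet their counts nearly equal sums that include these members. Reads were therefore counted for these genes without regard to strand. Reads of the genes and of these members cannot be told apart in these counts. AAG-5-1 lies in AC016907.3 (2 and 7 counts) and TAA-5-1 in ADGRB3 (386 and 457 counts), which hold few counts of their members (0 and 0, and 3 and 3).

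Genes listed as partners of leucine tRNA had few counts beside the tRNA genes. The list held 17 genes for charging, intron splicing, modification and RNA polymerase III transcription, not all of them particular to leucine tRNA. It included TRMT13 itself, the protein the RNA was recovered with, at 45 and 67 counts. All 17 genes passed a mean R1 count of 10, as did 13207 of all 20285 nuclear protein-coding genes. Their median was 5.41 CPM, against 3.41 CPM over nuclear protein-coding genes past the minimum. All 17 were higher in replicate 2, as were 13054 of 13207 nuclear protein-coding genes. The highest were GTF3C1, LARS and POLR3A. LARS, the cytosolic leucyl-tRNA synthetase, had 272 and 414 counts (14.9 ± 7.33 CPM), and LARS2, its mitochondrial counterpart, had 172 and 312 (10.7 ± 6.36 CPM). GTF3C1, a subunit of the factor that binds the B box, had 456 and 742 counts, or 26.2 ± 13.9 CPM (SD, n = 2 each). POLR3A, the largest subunit of RNA polymerase III, had 209 and 324 counts. NSUN2, which methylates cytosine in tRNA-Leu-CAA, had 124 and 239 counts.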

How the data were processed

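CLIP-seq of hTrmt13 was measured in 2 replicate libraries of MDA-MB-231 cells. For each mate of each library the authors deposited a table of raw counts of reads by feature. The submitters' processing notes name Bowtie2 2.3.5.1, bedtools 2.24.0 and the hg19 (GRCh37) build. How reads with several matches were placed is not given in the sources used here, nor are the alignment options or the use of strand. After 13 repeated lines were dropped, 741078 features remained.

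Shares, CPM (counts scaled to the table's total) and ratios were computed from R1 unless stated, with a minimum mean count of 10 where named, a fold of 1.5 between replicates, a pseudocount of 0.5 CPM on the log2 scale and exact 95% Clopper-Pearson intervals. A count of 0 was read as up to 3 counts. tRNA starts were read as 0-based and printed 1-based: 34 members matched RefSeq (GRCh38.p14) by symbol and 33 of these had its length. Sequences are from RefSeq's promoter windows. AAG-2-2 was found there by acceptor stem, A box, anticodon and B box, and CAA-1-1 by A box and anticodon. AAG-2-4 was found by its match to the end of AAG-2-2. Positions were not converted between builds. Scaling alternatives used edgeR 4.0.16 and DESeq2 1.42.0 in R 4.3.3; other steps used Python 3.11.15 with scipy 1.17.1, pandas 2.3.3, matplotlib 3.10.9 and numpy 2.4.6. The fold calls were tested on simulated data.

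Members and lists were chosen with earlier results of these data known. Named genes are the highest copy of each family, copies with at least 5% of tRNA-Leu counts, the 3 members differing most between replicates in each direction, isodecoders with extreme copy ratios, overlapping features, and from the partner list the 3 highest and both synthetases. Other copies and NSUN2 fall outside this rule; they were added with their values known, to account for every family.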

Additional observations from a re-analysis of the deposited data

How the results depend on the processing

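Alternative settings gave 100 values for the comparisons, of which 51 stayed within 1 SD of the 2 replicates (counts within 1.5 times, median log2 ratios within 0.1) and 49 did not. The 51 include every value that leaves out 1 replicate. Such a value always stays within 1 SD of a mean of 2 and is no sign of stability. Of the other values, most moved. For these shifts the cause was not tested, apart from settings that remove genes by construction. No paired analysis was possible because all samples form 1 group. Depth limits the members under 10 counts.

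The share of tRNA-Leu in tRNA counts was 7.34% in R2, 4.50% for the sum of mates, 2.69% without its highest copy, 1.92% of all counts and 2.47% on mean counts per gene; without either replicate it was 3.13 to 3.50%. The 5 highest copies held 53.8% in R2, 54.5% for the sum of mates and 53.8% without the highest copy, with 55.6 to 56.1% without either replicate. Without the highest copy of tRNA-Leu, AAG took 32.8%, TAG 18.96%, TAA 18.5%, CAG 16.6% and CAA 13.1%. On mean counts per gene, TAG took 28.7%, AAG 26.4%, TAA 22.4% and CAG 11.2%, so TAG stood above AAG, within the spread. Without members overlapping another feature, AAG took 50.004%, TAG 16.7%, TAA 16.4% and CAG 5.31%. In R2, CAG took 17.3%, TAG 12.99% and CAA 8.64%; for the sum of mates, CAG took 15.3% and TAG 14.2%. Without either replicate, AAG ran from 43.2 to 48.3%, TAG from 14.9 to 15.7%, TAA from 13.96 to 15.9%, CAG from 12.3 to 14.6% and CAA from 9.80 to 11.4%.

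Between copies, the R2 ratio of highest to lowest was 115.2 for AAG-1, 6.63 for CAG-1, 5.62 for CAG-2, 3.97 for AAG-2 and 1.05 for CAA-1. Without the highest copy, a setting chosen after the data were seen, R1 gave 1.87 for AAG-1, 1.61 for CAG-1 and 3.55 for AAG-2. Without either replicate, AAG-1 ran from 337.9 to 342.8, CAG-1 from 27.7 to 29.7, CAG-2 from 6.99 to 7.30, AAG-2 from 4.41 to 4.62 and CAA-1 from 1.09 to 1.12. R2 as a percent of R1, without the highest copy of each family, was 181.6% for CAG, 75.2% for TAG and 71.8% for CAA. Without either replicate it ran from 94.4 to 98.5% for AAG, 77.3 to 81.0% for TAG, 84.5 to 86.5% for TAA, 119.0 to 121.9% for CAG and 75.9 to 76.6% for CAA.

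Scaling moved the median of all features by -0.89 on the log2 scale, under edgeR's TMM and DESeq2's size factors alike. With either, 0 members were over 1.5-fold higher in replicate 2 and 31 lower, against 2 and 0 with library totals. The members' median log2 ratio was then -1.18 with TMM and -1.19 with size factors. It was 0.00937 with a minimum mean count of 1 and -0.21 in R2. With a minimum mean count of 1 or none, 1 member was lower, and in R2 or at a fold of 2, 1 was higher. For the 9 named copies, 18 of 36 CPM values moved by over 1 SD, all of them up, in R2 and in the sum of mates.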

Other observations

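Leucine tRNAs encoded in the mitochondrial genome were recovered too. MT-TL1 had 10049 and 7273 R1 counts, or 357 ± 4.85 CPM, and MT-TL2 had 2650 and 2212, or 101 ± 8.82 CPM (SD, n = 2 each). Their R2 counts were 23.7% and 19.9% of R1 for MT-TL1 and 17.1% and 16.6% for MT-TL2, whereas the cytosolic tRNA-Leu genes together stood above 90% in both replicates.

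Of the 3 leucine tRNA lookalikes, which the members leave out, tRX-Leu-NNN-1-1 (hg19, chromosome 9, 123117353 to 123117435, minus strand) had 16248 and 10848 R1 counts. This is 555 ± 39.1 CPM (SD, n = 2), close to tRNA-Leu-CAA-2-1 with 15476 and 10376 counts. The other lookalikes had 1 and 1 counts (tRX-Leu-NNN-2-1) and 0 and 0 (tRX-Leu-NNN-3-1).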
